A study of Mus musculus with 36 samples.

Results

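The genes examined were Yap1 and Wwtr1, which encode the transcriptional coactivators YAP and TAZ, together with Tead1, Lats2, Amotl2, Ajuba, Ccn1, Ccn2, Ankrd1 and Thbs1, chosen by name for their known place in the Hippo pathway or among the genes it controls. The choice was made with earlier results of these data known, so counts of members called are descriptions. All 10 were found among the 55487 genes of the count table. They were followed in 36 bulk RNA-seq libraries from the unmyelinated optic nerve (UON), the myelinated optic nerve (MON) and the retina of C57BL/6 mice aged 2 to 4 months, 12 libraries for each tissue. The UON was cut at the nerve head in front of the myelin transition zone, which was discarded, and the MON was the first section behind it. The 6 states were bilaterally naïve mice, mice 3 days (3 D) and 2 weeks (2 W) after unilateral crush of the optic nerve with forceps, and mice 3 D, 2 W and 6 weeks (6 W) after unilateral microbead injection into the anterior chamber, a glaucoma model in which beads obstruct aqueous outflow and raise intraocular pressure. Each state of each tissue was measured in RNA pooled from 2 females and in RNA pooled from 2 males, as 1 library each, and all 3 tissues came from the same mice, so n = 2 pools per group. A pool stands for its mice and its sex together, these cannot be told apart, and the p-values measure the spread between pools.

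YAP and TAZ carry no DNA-binding domain of their own and act on genes through TEAD transcription factors, of which TEAD1 is one. In the Hippo pathway the kinases LATS1 and LATS2 phosphorylate YAP and TAZ and keep them out of the nucleus, whereas stiff matrix, cell spreading and actin tension favor their nuclear entry. The activity of both proteins is therefore set largely after transcription, by phosphorylation and location, which RNA levels do not record. CCN1 and CCN2 are matricellular proteins whose genes are classic readouts of YAP and TAZ, and in the optic nerve head astrocytes and connective tissue cells bear the mechanical load of intraocular pressure.

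In GRCm38, Yap1 lies at chr9:7931999-8004596, Wwtr1 at chr3:57455649-57575910, Ccn1 at chr3:145646976-145649981, Ankrd1 at chr19:36111961-36120099, Ajuba at chr14:54567472-54577558 and Lats2 at chr14:57689662-57758388, all on the minus strand. On the plus strand are Tead1 at chr7:112679318-112906807, Ccn2 at chr10:24595442-24598683, Amotl2 at chr9:102716672-102733418 and Thbs1 at chr2:118111876-118127133. Noncoding genes or pseudogenes are annotated on the opposite strand within or across the loci of Yap1, Wwtr1, Tead1, Ccn2, Lats2 and Thbs1, and reads of such partners cannot be told apart where counting does not use strand.

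Depth ranged from 16.2 to 78.1 M estimated counts per library, with a median of 43.4 M. In naïve tissue the 8 photoreceptor markers were all lower in both nerve regions than in retina, and the 8 oligodendrocyte markers were all lower in UON than in MON, where their summed level was 29200 and 22300 CPM (counts per M counts, scaled by TMM library factors) in the female and male UON pools against 167000 and 125000 CPM in MON. Oligodendrocyte RNA was thus present in UON. The 8 fibroblast markers summed to 2860 and 3030 CPM in naïve UON against 718 and 482 CPM in naïve MON, and 5 of them were called higher. A pair of MON libraries stood apart in surface epithelium markers, which summed to 907 CPM in the male glaucoma 2 W pool and 2510 CPM in the female glaucoma 6 W pool. Leaving out each of these in turn left the number of members called after glaucoma at 0.

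The letters that TEAD factors recognize were found before the start of 6 members. RefSeq start sites on the mouse build GRCm38.p6 were in the reference table for 7 of the 10 members, and for these the 250 bases before the start were searched on both strands for the letters GGAATG, a core TEAD motif. A match was present at 6 of these 7 members and at 7 of their 9 start sites, where the 2 sites of Wwtr1 share 1 match. Counted per start site, 12.6% of 32851 promoters of all genes held one. The members were chosen for their known place in the pathway, so these shares are descriptions. Ankrd1 and Ajuba held 2 matches each, a count of 2 or more being present in 1.02% of promoters. Yap1 had a match 141 to 136 bases before its start and Amotl2 had one 65 to 60 bases before, while none was found at Lats2. Neither the AP-1 letters TGANTCA, present in 6.75% of promoters, nor the CArG box of serum response factor (SRF), present in 1.47%, occurred in these windows of the members. Ccn2, Tead1 and Thbs1 were not in that table.

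The promoters of Wwtr1 (chr3:57575911-57576160, minus strand), Ccn1 (chr3:145649986-145650235, minus strand) and Ajuba (chr14:54577662-54577911, minus strand) are shown because these genes differed between the nerve regions, and that of Ankrd1 (chr19:36119845-36120094, minus strand) because it held 2 matches although its RNA was close to 0. Each is the first RefSeq start site in GRCm38.p6, written 5′ to 3′ on the strand of the gene, with GGAATG or its reverse complement in capitals.
Wwtr1: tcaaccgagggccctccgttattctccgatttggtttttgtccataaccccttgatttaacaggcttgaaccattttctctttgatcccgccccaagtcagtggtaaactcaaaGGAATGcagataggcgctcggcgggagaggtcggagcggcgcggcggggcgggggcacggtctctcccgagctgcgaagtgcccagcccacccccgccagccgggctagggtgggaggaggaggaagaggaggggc
Ccn1: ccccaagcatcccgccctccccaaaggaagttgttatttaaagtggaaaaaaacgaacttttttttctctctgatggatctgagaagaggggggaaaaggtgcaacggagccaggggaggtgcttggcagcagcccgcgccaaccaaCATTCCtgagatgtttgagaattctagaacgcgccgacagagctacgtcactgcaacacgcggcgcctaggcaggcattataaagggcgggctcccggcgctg
Ajuba: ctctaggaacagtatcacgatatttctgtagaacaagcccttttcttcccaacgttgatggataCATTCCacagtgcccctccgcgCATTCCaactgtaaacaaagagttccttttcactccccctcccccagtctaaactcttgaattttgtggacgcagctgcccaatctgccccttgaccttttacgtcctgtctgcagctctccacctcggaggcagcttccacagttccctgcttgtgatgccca
Ankrd1: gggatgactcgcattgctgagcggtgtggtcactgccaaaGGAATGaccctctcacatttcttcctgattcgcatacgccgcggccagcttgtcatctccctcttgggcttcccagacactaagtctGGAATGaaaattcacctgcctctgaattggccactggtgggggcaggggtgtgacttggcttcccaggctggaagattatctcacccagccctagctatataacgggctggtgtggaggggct
The capitals lie 136 to 131 bases before the start of Wwtr1, 103 to 98 before Ccn1, 186 to 181 and 164 to 159 before Ajuba, and 210 to 205 and 123 to 118 before Ankrd1. A match of letters is a description of the window and does not show that TEAD1 is bound there.

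On the TPM scale, which divides by transcript length and allows genes to be compared, Ccn2 RNA had the highest mean level among the 10 members in each naïve tissue and Ankrd1 the lowest. In naïve UON, Ccn2 was at 312 ± 179 TPM (SD, n = 2 pools), followed by Ccn1 at 89.1 ± 32.5, Wwtr1 at 59.0 ± 17.6, Lats2 at 42.1 ± 5.96 and Amotl2 at 24.2 ± 3.12 TPM. Ajuba at 16.3 ± 1.48, Yap1 at 9.24 ± 5.06, Thbs1 at 5.83 ± 2.85 and Tead1 at 5.20 ± 2.64 TPM came after these. The pools of Ccn1 and Wwtr1, of Yap1 and Thbs1, and of Thbs1 and Tead1 overlapped, so the order within these pairs is not resolved. In naïve MON the order was Ccn2 at 66.2 ± 8.83 TPM, Lats2 at 30.1 ± 13.6, Ccn1 at 22.6 ± 7.97, Amotl2 at 20.6 ± 6.46, Wwtr1 at 16 ± 1.15 and Yap1 at 9.65 ± 2.07 TPM. The first member, Ccn2, did not overlap the next there, whereas the pools of Lats2, Ccn1, Amotl2 and Wwtr1 each overlapped the neighbour in the order. Tead1 at 5.25 ± 2.42, Ajuba at 3.75 ± 1.75 and Thbs1 at 0.793 ± 0.528 TPM were lower. In naïve retina Ccn2 was at 20.7 ± 1.20 TPM and Lats2 at 15.1 ± 1.27, Wwtr1 was at 6.75 ± 0.24, Yap1 at 2.71 ± 0.0119 and Thbs1 at 0.883 ± 0.0855 TPM. Over all 12 libraries a tissue, 7 of the 10 members had their highest mean TPM in UON, a lower one in MON and the lowest in retina. The share of all genes in this order was not computed, so how unusual the count is remains unknown. Ankrd1 is among the 7 at means of 0.381, 0.144 and 0.0807 TPM, close to 0. For Lats2 and Ccn1, also among them, the UON and MON means differed by less than the SD of either tissue. The order of these nerve regions is thus not resolved for Lats2 and Ccn1.

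**Figure D1:**
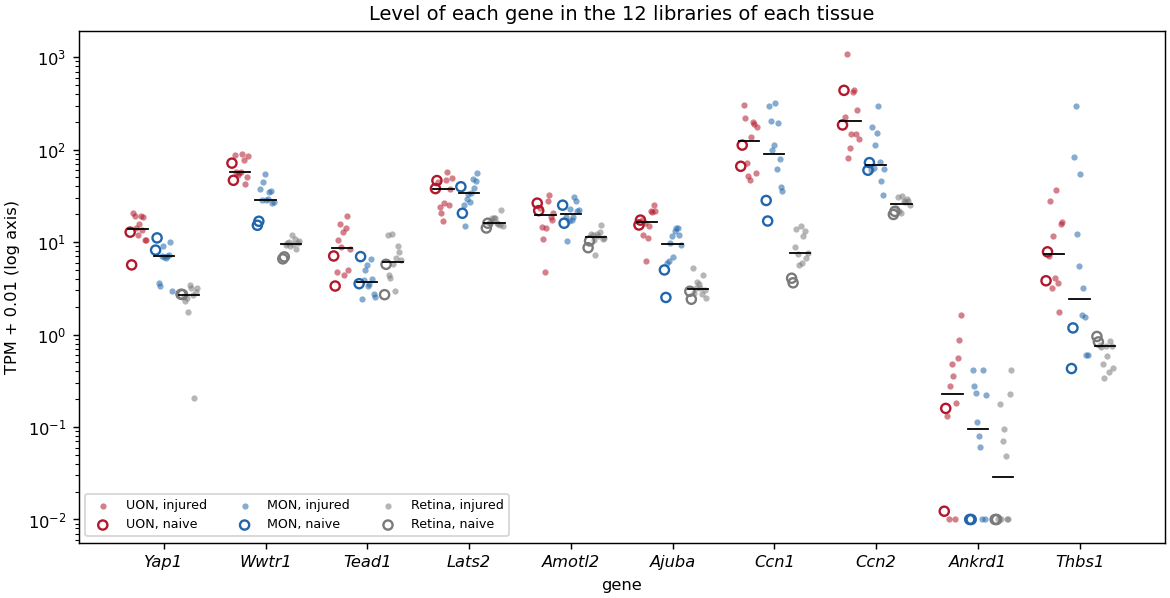
TPM (log axis, 0.01 added) of the 10 members in the 12 UON, 12 MON and 12 retina libraries. Each point is a library, open circles are the naïve pools and bars are medians over 12 libraries. Ccn2 is near the top in all tissues, Ankrd1 near 0, and the Thbs1 points in MON spread from 0.419 to 299 TPM.

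TAZ RNA exceeded YAP RNA in every library. The ratio of Wwtr1 to Yap1 on the TPM scale was above 1 in 36 of 36 libraries, with a lowest, median and highest value of 2.29, 4.66 and 8.22 in UON and 1.51, 4.93 and 10.4 in MON. In MON the lowest ratios were those of the naïve pools, 1.86 in the female and 1.51 in the male, and the highest were 10.4 in the female crush 3 D pool, 9.23 in the male glaucoma 6 W pool and 8.54 in the male crush 3 D pool. In retina the ratio ran from 2.42 to 42.9 with a median of 3.54, and the highest value came from the male glaucoma 2 W library, in which Yap1 had 20 counts. The TPM per CPM of Yap1 differed 5.32-fold between libraries, with a median of 0.454 and a highest value of 1.76. That highest value came from the male retina pool at crush 3 D, with 64 counts and 2.31 TPM. The female pool of that state had 189 counts and 2.62 TPM, so the count and the TPM of Yap1 do not match in the male pool.

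**Figure D2:**
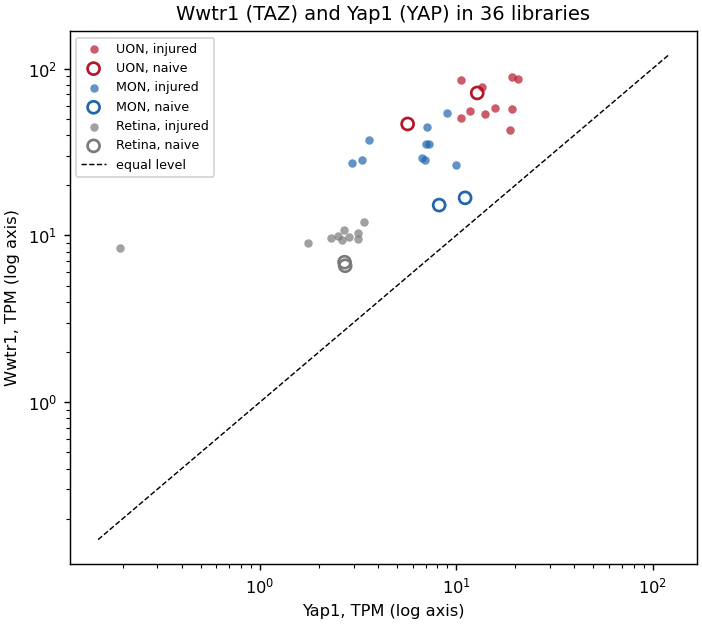
TPM of Wwtr1 (TAZ) against TPM of Yap1 (YAP), both on log axes, 1 point per library, with UON, MON and retina in separate colors and the line of equal TPM. All 36 points lie on the Wwtr1 side of the line.

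The first comparison asked how the members differed between the tissues of naïve mice. Wwtr1, Ccn1, Ccn2, Ajuba and Thbs1 were called higher in UON than in MON, by between 1.67 and 3.19 on the log2 scale, while Yap1, Tead1, Lats2 and Amotl2 were not called. To be called, a gene needed both an adjusted p (Benjamini-Hochberg, edgeR's quasi-likelihood test) under 0.05 and a change larger than 1 on the log2 scale. These are 5 of the 9 members tested, Ankrd1 having too few counts, whereas 9.63% of the 23685 genes tested were called in either direction with 4.83% higher and 4.8% lower in UON. The median log2 fold change was 1.67 over the 9 members and -0.0616 over all genes tested. Because the members were chosen with earlier results of these data known, these shares and medians are descriptions. In bulk tissue, fewer cells of a type and less RNA per cell cannot be told apart, and the fibroblast markers given above were higher in the same UON pools; their part in these differences was not tested.

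Of the coactivators, Wwtr1 was at 192 CPM in the female and 129 CPM in the male naïve UON pool, 45.5 and 51.5 CPM in MON, and 14.8 and 14.5 CPM in retina. The 3 tissues did not overlap. The UON to MON log2 fold change of Wwtr1 was 1.67 ± 0.26 (SE, adjusted p = 0.00896), and those to retina were 3.41 for UON and 1.73 for MON, both called. Yap1 was at 30.5 and 12.9 CPM in naïve UON, 20.3 and 26.9 CPM in MON, and 5.38 and 5.11 CPM in retina. Its UON pools lay on either side of the MON pools, with a log2 fold change of -0.24 ± 0.44 (SE, adjusted p = 0.806), and both nerve regions lay above retina, by 1.96 for UON and 2.2 for MON. Without the female UON pool the adjusted p of the UON to retina difference of Yap1 was 0.0978.

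Tead1, the DNA-binding partner, was at 24.9 and 6.57 CPM in naïve UON, 12.7 and 28.4 CPM in MON and 6.25 and 9.42 CPM in retina. Its UON pools overlapped those of both other tissues, the MON pools lay above the retina pools, and no regional difference of Tead1 was called (adjusted p of 0.182 to 0.797). Its level depends on the transcript assembly: 24.9% of all Tead1 counts lay in transcripts outside the annotation used here, found in 10 libraries, and its TPM per CPM differed 12.5-fold between libraries, against 1.72- to 2.63-fold for the other members except Yap1.

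Lats2, Amotl2 and Ajuba encode regulators of the pathway, and the set of YAP and TAZ with their targets examined here also holds them as targets. Lats2, the kinase that holds YAP and TAZ back, was at 95.5 and 135 CPM in naïve UON, 117 and 66.6 CPM in MON, and 32.5 and 35.8 CPM in retina. Amotl2, an angiomotin family scaffold that binds YAP, was at 61.8 and 52.0 CPM in UON, 57.5 and 42.1 CPM in MON, and 16.4 and 17.5 CPM in retina. For both genes the nerve regions overlapped, with log2 fold changes of 0.30 for Lats2 (adjusted p = 0.625) and 0.16 for Amotl2 (adjusted p = 0.728), and both regions lay above retina, by 1.42 to 1.72 on the log2 scale, all called. The locus of Lats2 shares its strand with the overlapping gene model Gm49361, so the division of reads between these is uncertain. Ajuba, a LIM protein that binds LATS kinases, was at 29.3 and 34.0 CPM in UON, 10 and 5.59 CPM in MON, and 4.77 and 3.65 CPM in retina. The UON pools of Ajuba were above all others, by 2.03 ± 0.35 (log2, SE, adjusted p = 0.0140) over MON and 2.90 over retina, whereas MON over retina was 0.87 (adjusted p = 0.103).

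Of the matricellular targets, Ccn1 was at 76.3 and 134 CPM in naïve UON, 36.3 and 22.3 CPM in MON, and 3.94 and 3.27 CPM in retina. Ccn2 was at 248 and 611 CPM in UON, 91.0 and 111 CPM in MON, and 21.8 and 22.9 CPM in retina. Both genes fell in the same order, UON over MON over retina, without overlap. The UON to MON log2 fold change was 1.81 ± 0.36 (SE, adjusted p = 0.0228) for Ccn1 and 1.96 ± 0.32 (SE, adjusted p = 0.0116) for Ccn2. Over retina, UON was higher by 4.83 for Ccn1 and 4.11 for Ccn2, and MON by 3.02 and 2.15, all called. Thbs1, which encodes the matricellular glycoprotein thrombospondin 1, was at 12.7 and 26.7 CPM in UON, 1.5 and 2.65 CPM in MON, and 2.50 and 2.15 CPM in retina. UON stood above both other tissues, which overlapped. Thbs1 was higher in UON than in MON by 3.19 ± 0.49 (log2, SE, adjusted p = 0.00880) and than in retina by 2.92, and the MON to retina difference was -0.27 (adjusted p = 0.723).

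Ankrd1, a cardiac and skeletal muscle ankyrin repeat protein and a widely used YAP target in cultured cells, was barely detected. It had 0 counts in 2 of 12 UON, 4 of 12 MON and 6 of 12 retina libraries, and its highest level was 2.08 CPM, 84 counts, in UON. These counts do not support a fold change between states.

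Against retina, 8 of the 9 members tested were called higher in UON, where 31.7% of genes were called in either direction and 18.2% higher, and 6 of 9 were called higher in MON, where the background was 27.6% and 16.7%. The medians were 2.90 over the members and -0.169 over all genes for UON, and 1.54 against 0.00307 for MON. The 8 astrocyte markers, 8 fibroblast markers and 8 microglia markers were likewise all called higher in both nerve regions than in retina.

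Some of the naïve calls depended on single pools. Without the male MON pool the adjusted p rose to 0.0509 for Ccn2, 0.0505 for Ajuba and 0.0912 for Ccn1, and without the male UON pool to 0.0740 for Ajuba and 0.103 for Ccn1. The UON to MON differences of Wwtr1 and Thbs1 stayed called when each naïve pool was left out. With the injured libraries added to the fit, the adjusted p of the UON to MON difference was 0.0523 for Ccn2, 0.0656 for Ccn1 and 0.0928 for Thbs1.

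**Figure D3:**
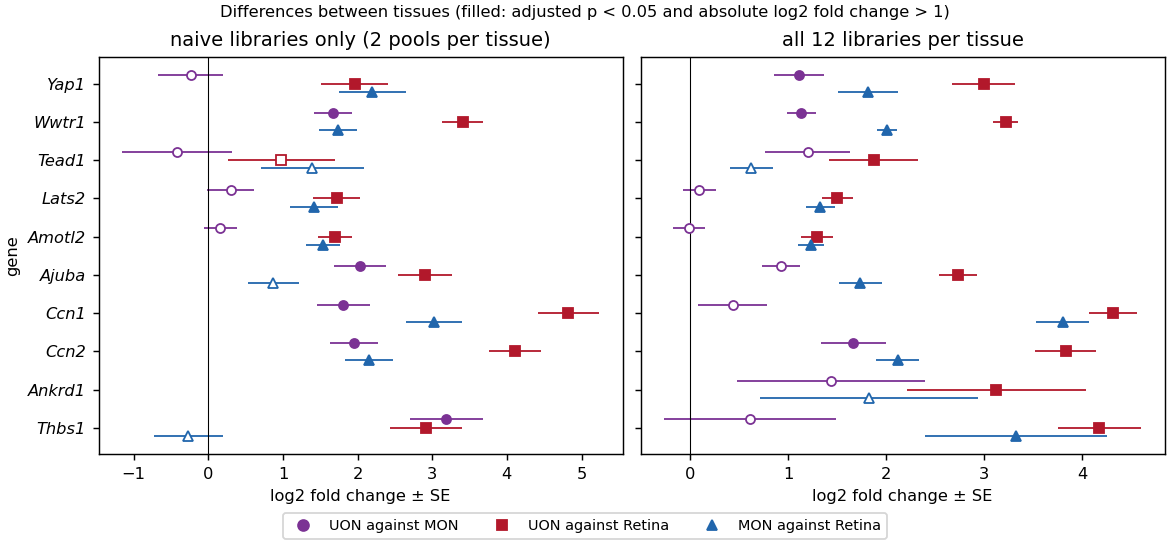
Log2 fold change (points) with its SE (bars) of each member tested between UON and MON, UON and retina, and MON and retina, from edgeR. The left panel holds the naïve libraries, the right panel all 12 libraries a tissue, and filled symbols are calls. In the left panel Wwtr1, Ccn1, Ccn2, Ajuba and Thbs1 lie to the right of 0 for UON over MON, and Yap1 and Tead1 lie near or left of it. In the right panel Yap1 is at 1.11 for UON over MON and called.

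Over all 6 states, with 12 libraries a tissue, the regional order of Wwtr1 and Ccn2 held in each pool of mice: the UON library was above the MON library of the same mice in 12 of 12 pools for both genes. Yap1 and Ajuba were higher in UON in 10 of 12 pools, Thbs1 and Tead1 in 8, Ccn1 in 7, and Amotl2 and Lats2 in 6. The share of all genes with such counts was not computed, so how unusual they are is not known. A fit of all states shares the naïve libraries with the comparison above and had no term for the pool of mice. In it 3 of 10 members were called higher in UON than in MON, against 12.8% of genes called in either direction and 5.81% higher. These were Ccn2 (log2 fold change 1.66 ± 0.34, SE, adjusted p = 0.000660), Wwtr1 (1.13 ± 0.15, SE, adjusted p = 5.66e-06) and Yap1 (1.11 ± 0.25, SE, adjusted p = 0.00216). Ajuba, at a log2 fold change of 0.93 (adjusted p = 0.000946), stayed under the limit of 1, and Ccn1 was at 0.43 (adjusted p = 0.429). Yap1 was thus called between the nerve regions over all states but not in naïve mice, and the difference between these fits was not tested. All 10 members were called higher in UON than in retina (background 49.3% in either direction, 22% higher), Ankrd1 at the low counts given above, and 8 of 10, all but Tead1 and Ankrd1, higher in MON than in retina (48.6% and 21.6%).

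Optic nerve crush was followed by higher Ccn1 and Thbs1 RNA in MON at both times and higher Wwtr1 RNA at 2 W. At 3 D, 2 of the 9 members tested were called, Thbs1 and Ccn1, both higher, against 4.26% of 19988 genes called in either direction with 3.61% higher and 0.655% lower. At 2 W 3 of 9 were called higher, Thbs1, Ccn1 and Wwtr1, against 2.72% of genes in either direction with 2.13% higher and 0.595% lower. The medians over the members were 0.583 at 3 D and 0.222 at 2 W, beside -0.0049 and 0.0514 over all genes tested. All injured groups of a tissue were compared with the same 2 naïve libraries.

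Thbs1 in MON was at 1.5 and 2.65 CPM in the naïve female and male pools, 279 and 1050 CPM at crush 3 D, and 40.1 and 17.1 CPM at crush 2 W. Every crushed pool was above both naïve pools, and the 3 D pools were above the 2 W pools. The log2 fold change of Thbs1 was 8.32 ± 0.87 (SE, adjusted p = 0.00770) at 3 D and 4.00 ± 0.74 (SE, adjusted p = 0.0406) at 2 W. Ccn1 in MON was at 36.3 and 22.3 CPM in naïve mice, 343 and 251 CPM at 3 D, and 113 and 132 CPM at 2 W. The 3 states of Ccn1 did not overlap, and its log2 fold change was 3.44 ± 0.34 (SE, adjusted p = 0.00737) at 3 D and 2.15 ± 0.32 (SE, adjusted p = 0.0279) at 2 W.

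Wwtr1 in MON went from 45.5 and 51.5 CPM in naïve pools to 99.8 and 80.4 CPM at crush 3 D and 118 and 149 CPM at 2 W. All crushed pools lay above the naïve pools, and the log2 fold change was 0.99 ± 0.29 (SE, adjusted p = 0.107) at 3 D and 1.5 ± 0.29 (SE, adjusted p = 0.0445) at 2 W. Yap1 lay the other way at 3 D, with 20.3 and 26.9 CPM in naïve pools against 8.64 and 8.42 CPM, and had 15.1 and 22.1 CPM at 2 W. The 3 D pools of Yap1 were below the naïve pools without overlap, but its log2 fold change of -1.36 ± 0.34 (SE, adjusted p = 0.0737) was not called by edgeR, and the 2 W pools overlapped the naïve range. DESeq2 called it at -1.41 (adjusted p = 0.00928). Ajuba was at 11.6 and 12.6 CPM at 3 D and 18.5 and 23.2 CPM at 2 W in MON, above its naïve 10 and 5.59 CPM in each pool, with adjusted p of 0.344 and 0.113 by edgeR, and DESeq2 called Ajuba at 2 W (1.44, adjusted p = 0.0224). Ccn2, Lats2, Amotl2 and Tead1 were called in MON at neither time after crush by edgeR or DESeq2, with edgeR log2 fold changes between -0.67 and 0.58.

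The MON calls depended on the naïve pools. Without the female naïve MON pool, which at 78.1 M counts was the deepest library, the adjusted p at 3 D was 0.0758 for Thbs1 and 0.0624 for Ccn1, no member was called after crush, and the genes called at 3 D fell to 19 of all genes from 852. Without the male naïve MON pool, Thbs1 and Ccn1 stayed called at 3 D and 174 genes were called. At 2 W Thbs1, Ccn1 and Wwtr1 were each lost without either naïve MON pool, the highest adjusted p being 0.245, 0.143 and 0.225. Markers of other cells differed in the same MON pools. The 12 proliferation genes summed to 20.5 and 18.5 CPM in naïve MON and to 666 and 784 CPM at 3 D, and all 12 were called higher. The 6 platelet markers summed to 16.8 and 11.5 CPM in naïve MON and to 44.1 and 78 CPM at 3 D, and no gene of these lists was at 0 in both pools of either group. The 8 microglia markers summed to 1360 and 1300 CPM in naïve MON, 2790 and 3310 CPM at 3 D and 5950 and 3560 CPM at 2 W, with 1 called higher at 3 D and 3 at 2 W. The 8 monocyte and neutrophil markers summed to 24.8 and 25.4 CPM, 56.9 and 88.5 CPM, and 141 and 117 CPM in the same states, with Retnlg at 0 in both naïve pools and Cxcr2 at 0 in both pools at 2 W. The 8 oligodendrocyte markers lay lower, at 87800 and 73000 CPM at 3 D and 47300 and 60400 CPM at 2 W against 167000 and 125000 CPM, with 1 called lower at 2 W. The proliferation sum at 2 W was 125 and 62.7 CPM. The part of these RNAs in the changes of Thbs1, Ccn1 and Wwtr1 was not tested.

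**Figure D4:**
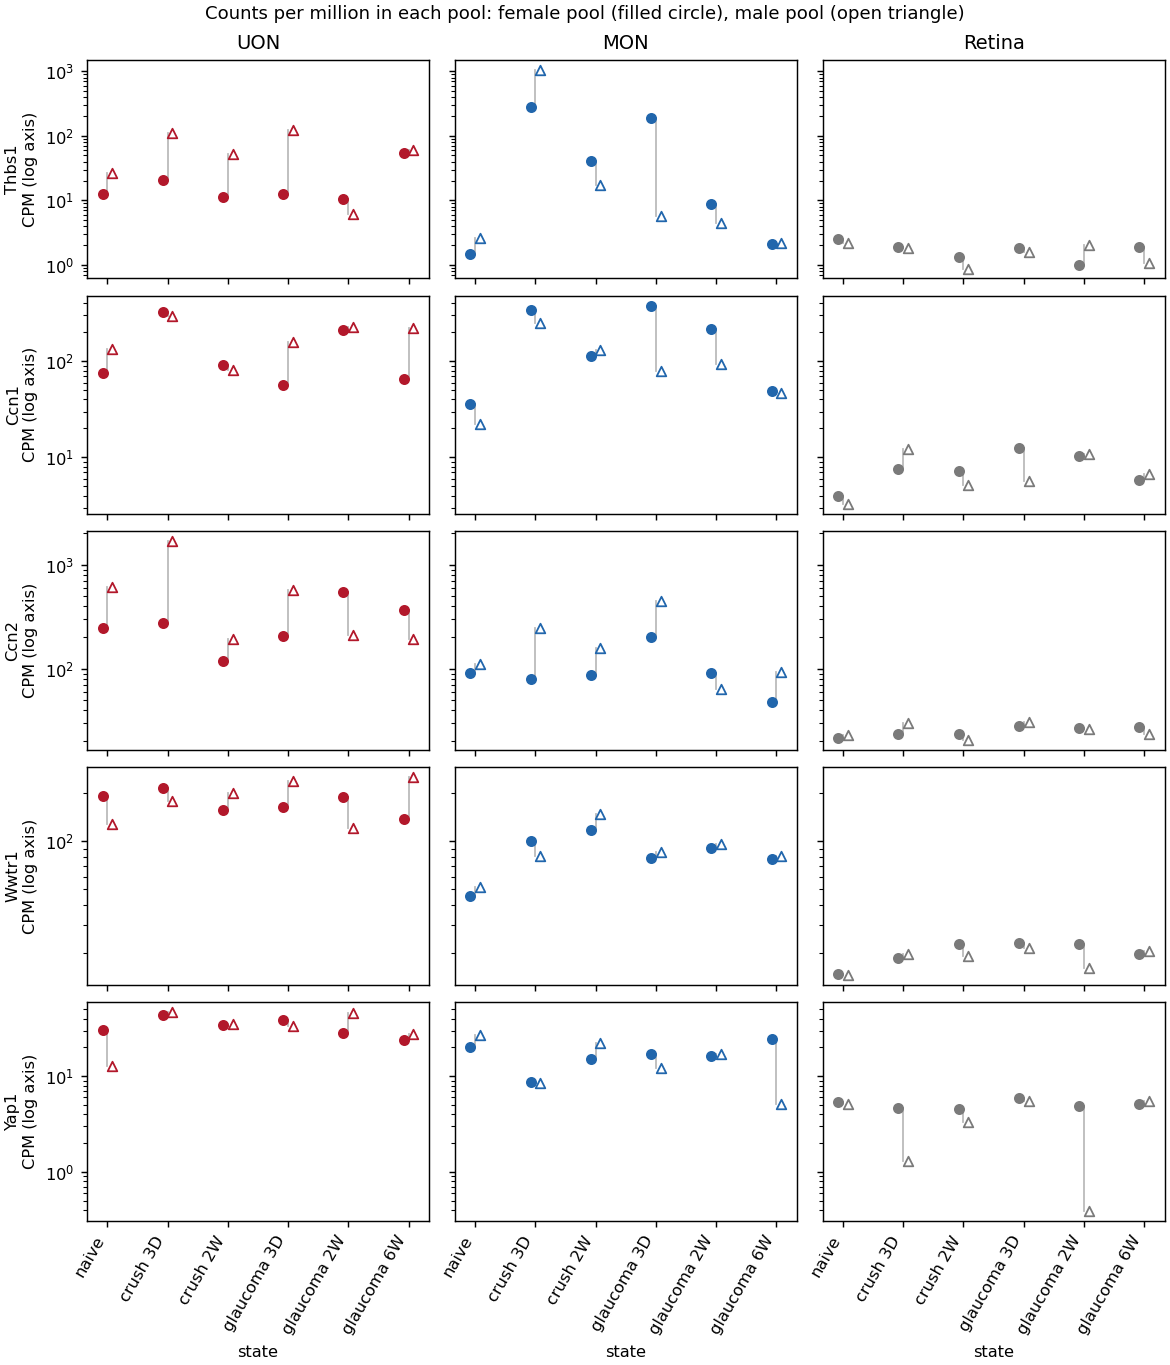
CPM (log axis) of Thbs1, Ccn1, Ccn2, Wwtr1 and Yap1 by state in UON, MON and retina, with the female pool as a filled circle and the male pool as an open triangle. In MON, Thbs1 stands at 279 and 1050 CPM at crush 3 D against 1.5 and 2.65 CPM in naïve mice.

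In UON no member was called after crush by edgeR, where 0% of 21368 genes were called at 3 D and 0.0281% at 2 W. An unadjusted p under 0.05 was reached in 6 of 20 member tests, and by 657 and 1980 of all genes at 3 D and 2 W. DESeq2 called 2 of these member tests, beside 5308 calls over all genes and tissues after crush, and limma on log2(TPM + 1) called 0. Ccn1 was at 327 and 297 CPM in UON at crush 3 D against 76.3 and 134 CPM in naïve pools, which did not overlap, with a log2 fold change of 1.61 ± 0.36 (SE, adjusted p = 0.753); at 2 W it was at 91.2 and 81.4 CPM, inside the naïve range. Amotl2 was at 28.5 and 14.4 CPM in UON at 2 W against 61.8 and 52.0 CPM, a log2 fold change of -1.48 ± 0.35 (SE, adjusted p = 0.464). Ccn1 at 3 D and Amotl2 at 2 W were the calls of DESeq2. Yap1 was at 43.7 and 46.8 CPM in UON at 3 D, above both naïve pools, with a log2 fold change of 1.15 ± 0.44 (SE, adjusted p = 1). Thbs1 in UON was at 21.0 and 109 CPM at 3 D and Ccn2 at 276 and 1690 CPM, the higher value of each being that of the male pool. The fibroblast markers summed to 2830 CPM in the female and 6080 CPM in the male pool. At 2 W they summed to 2390 and 5260 CPM, with Ccn2 at 120 and 194 CPM, below both naïve pools. The part of fibroblast RNA in these values was not tested.

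In retina the members stayed low, and none was called after crush by edgeR, where 0.0221% of 22671 genes were called at 3 D and 0.313% at 2 W. An unadjusted p under 0.05 was reached in 4 of 18 member tests, and by 1437 and 2037 of all genes at 3 D and 2 W. DESeq2 called 1 of these member tests, Ccn1 at 3 D, beside 5308 calls over all genes and tissues after crush. Limma on log2(TPM + 1) called 0. Ccn1 was at 12.2 CPM in the male and 7.54 CPM in the female pool at crush 3 D against 3.27 and 3.94 CPM, with a log2 fold change of 1.47 ± 0.34 (SE, adjusted p = 0.441). DESeq2 called Ccn1 at 3 D in UON and MON as well. The paper, which used DESeq2 with the same limits, names Ccn1 among the genes upregulated in all tissue regions at that time. Thbs1 in retina ran from 0.878 to 2.02 CPM in the 10 injured pools, below both naïve pools at 2.15 and 2.50 CPM.

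The change of Thbs1 at crush 3 D differed between MON and retina. In a fit of both tissues, a comparison added after the data had been seen, the MON change minus the retina change of Thbs1 was 8.70 ± 0.96 (log2, SE, adjusted p = 0.00766), against 0.882% of 25398 genes called in either direction and 0.697% higher. Over both nerve regions and all times this was the 1 call by edgeR in 100 member tests of a difference from retina, of which 14 had an unadjusted p under 0.05. Among all genes such a p was reached by 1036 of 26137 (UON, crush 3 D) to 3757 of 25398 (MON, crush 3 D) per comparison. DESeq2 called 4 of the member tests, beside 3939 calls over all genes and these comparisons, and limma 2, beside 948. At 2 W the same difference was 4.94 ± 0.92 (log2, SE, adjusted p = 0.0503), and with each pool of mice as a block it was 4.88 (adjusted p = 0.0257). The UON change of Thbs1 at 3 D minus its MON change was -6.64 ± 1.01 (log2, SE, adjusted p = 0.0850), where 0.012% of 25011 genes were called (0% at the other times of both injuries), and with each pool of mice as a block it was -6.73 (adjusted p = 0.0152). No other member was called for a difference between UON and MON in response to either injury, with or without that block. An unadjusted p under 0.05 was reached by edgeR in 14 of 50 member tests. Among all genes it was reached by 799 of 25807 (glaucoma 6 W) to 2728 of 25011 (crush 2 W) per comparison. DESeq2 called 5 of the member tests, beside 1129 calls over all genes and these comparisons, and limma on log2(TPM + 1) called 0.

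**Figure D5:**
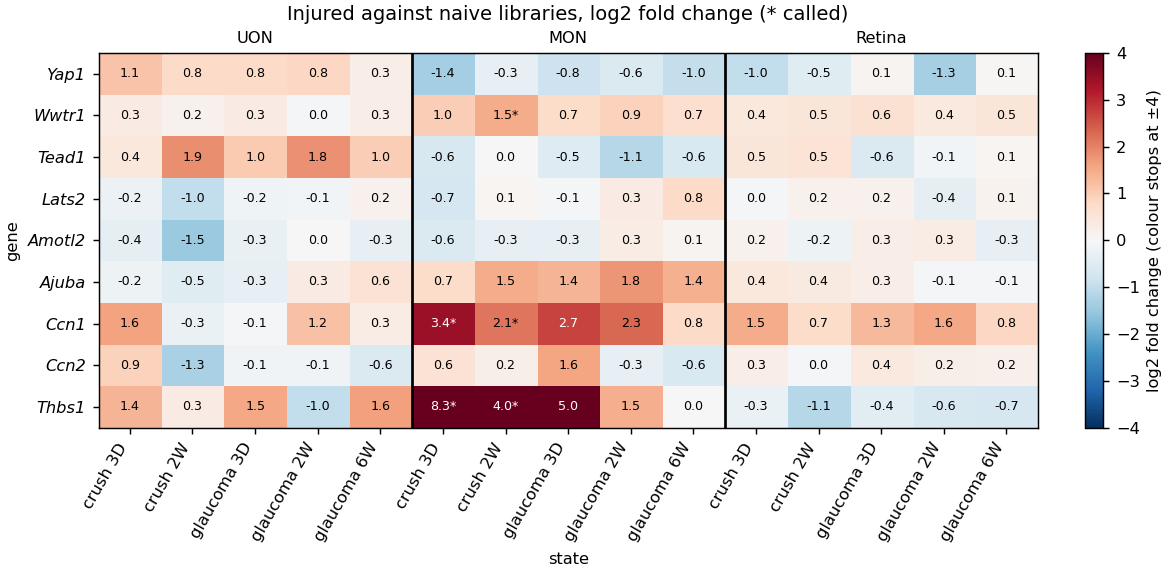
Log2 fold change against naïve (color, stopping at 4 either way) of 9 members, without Ankrd1, in each injured group of UON, MON and retina from edgeR, with an asterisk for a call. The 5 asterisks are Thbs1 and Ccn1 in MON at crush 3 D and 2 W and Wwtr1 in MON at crush 2 W.

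After microbead injection no member was called in any tissue or at any time by edgeR. The share of all genes called was 0% at the 3 times in UON and in MON, and 0.00429%, 0% and 0.00858% at 3 D, 2 W and 6 W in retina. An unadjusted p under 0.05 was reached in 12 of 30 member tests in MON, 2 of 30 in UON and 4 of 27 in retina. Among all genes it was reached at 3 D, 2 W and 6 W by 1854, 2017 and 1127 of 22960 in MON. The counts were 868, 801 and 451 of 22438 in UON, and 1418, 1465 and 1321 of 23301 in retina. DESeq2 called 6, 0 and 1 of these member tests, beside 1634 calls over all genes and tissues, and limma on log2(TPM + 1) called 0. The values in MON are given because they lay apart from the naïve pools for several members. Ccn1 in MON was at 379 CPM in the female and 79.0 CPM in the male pool at glaucoma 3 D, 216 and 92.9 CPM at 2 W, and 49.2 and 46.2 CPM at 6 W, with log2 fold changes of 2.69, 2.29 and 0.76. All 6 pools were above the naïve 36.3 and 22.3 CPM, and none of the adjusted p was under 0.293. Thbs1 in MON was at 191 CPM in the female and 5.75 CPM in the male pool at 3 D, 8.65 and 4.45 CPM at 2 W, and 2.13 and 2.19 CPM at 6 W. The 3 D pools of Thbs1 thus differed from each other far more than the 6 W pools did from naïve mice, and its log2 fold change of 4.96 ± 1.46 (SE) had an adjusted p of 0.466. The female 3 D pool also had the higher proliferation sum, 359 against 50.9 CPM in the male pool, and the lower fibroblast sum, 515 against 1740 CPM. Without the male MON pool at glaucoma 3 D, Thbs1 (log2 fold change 6.54, adjusted p = 0.0130) and Ccn1 (3.42, adjusted p = 0.0403) were called, so the call then rested on the female pool at that time.

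Ajuba and Wwtr1 in MON were above both naïve pools in each of the 10 injured libraries, crush and glaucoma together. Ajuba ran from 11.6 to 28 CPM against 5.59 and 10 CPM, and Wwtr1 from 77.6 to 149 CPM against 45.5 and 51.5 CPM. Ccn1 did the same, from 46.2 to 379 CPM, so 3 members did so, where 3.63% of 24738 genes had every injured MON library above both naïve libraries. In retina Wwtr1, from 16 to 23.2 CPM against 14.5 and 14.8 CPM, and Ccn1, from 5.18 to 12.4 CPM, had all 10 injured libraries above the naïve pools, as had 1.98% of 24693 genes, and Thbs1 had all below, as had 1.61%. In UON no member had all injured libraries on one side of the naïve pools. With 2 naïve libraries a tissue, such counts rest on those 2 values. In MON the summed microglia markers, at 1960 to 5950 CPM against 1300 and 1360 CPM, and the summed monocyte and neutrophil markers, at 38.1 to 141 CPM against 24.8 and 25.4 CPM, were also above both naïve pools in all 10 injured libraries, and their part was not tested.

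Compared directly at matched times, no member was called between crush and glaucoma by edgeR. The background was 0% and 0.0311% of genes at 3 D and 2 W in UON, 0.00448% and 0% in MON, and 0.00848% and 0.0509% in retina. An unadjusted p under 0.05 was reached in 8 of 58 member tests, and neither DESeq2 nor limma called one. Among all genes it was reached by 147 of 22474 (UON, 3 D) to 2185 of 22302 (MON, 3 D) per comparison. In MON at 3 D, Thbs1 at 279 and 1050 CPM after crush against 191 and 5.75 CPM after microbeads gave a log2 fold change of 3.80 ± 1.57 (SE, adjusted p = 0.504), and the female and male pools after microbeads lay far apart. In UON at 2 W, Ccn1 was at 91.2 and 81.4 CPM after crush against 209 and 228 CPM after microbeads, without overlap, with a log2 fold change of -1.33 ± 0.45 (SE, adjusted p = 0.749).

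The rest of the pathway was read from lists of related genes. These lists too were chosen with earlier results of these data known, so their counts are descriptions. Of 16 other Hippo kinases, adaptors and upstream proteins, 1 was called higher in naïve UON than in MON and 1 lower, a share near the 9.63% of all genes called in either direction, with a median log2 fold change of 0.111. Frmd6, a FERM domain protein upstream of the kinases, was at 94.9 ± 4.81 CPM (SD, n = 2) against 33.7 ± 9.36 CPM (log2 fold change 1.46, adjusted p = 0.0165). Map4k4, a kinase that can phosphorylate LATS, was at 18.5 ± 2.83 against 61.6 ± 23.0 CPM (-1.75, adjusted p = 0.00966). Of the other TEAD factors, VGLL cofactors and proteins that bind YAP, TAZ or LATS, 1 of 11 tested was called, also near that background. This was Ptpn14, a phosphatase that binds YAP, at 55.8 ± 12 against 12 ± 2.62 CPM (2.16, adjusted p = 0.00950). Neither list had a member called after crush or glaucoma in any of the 15 comparisons with naïve mice by edgeR, at an unadjusted p under 0.05 in 26 of 240 tests of the first list and 10 of 160 of the second. Among all genes such a p was reached by 451 of 22438 (UON, glaucoma 6 W) to 4195 of 19988 (MON, crush 3 D) per comparison.

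Of 16 other published YAP and TAZ targets, 7 were called higher in naïve UON than in MON and none lower, beside 4.83% of all genes called higher, with a median of 0.963. Rbms3, an RNA-binding protein, was at 18.5 ± 0.599 CPM (SD, n = 2) in UON against 3.47 ± 2.11 CPM in MON (log2 fold change 2.43, adjusted p = 0.0202). Tgfb2, the ligand TGFβ2, was at 1450 ± 91.1 against 265 ± 42.3 CPM (2.42, adjusted p = 0.00220), and Fjx1 at 122 ± 22.5 against 27.3 ± 7.60 CPM (2.15, adjusted p = 0.00502). After crush, 3 of these 16 targets were called higher in MON at 3 D and 2 at 2 W, beside 3.61% and 2.13% of all genes. Ccdc80, a matrix protein, was at 42.7 ± 3.84 CPM in naïve MON, 111 ± 13.3 CPM at 3 D (1.46, adjusted p = 0.0279) and 116 ± 6.17 CPM at 2 W (1.48, adjusted p = 0.0379). Gadd45a, a stress-response gene, was at 56.7 ± 2.57 CPM at 3 D against 24 ± 7.14 CPM (1.34, adjusted p = 0.0498), and the receptor tyrosine kinase Axl at 567 ± 24.7 CPM at 2 W against 155 ± 52.1 CPM (1.95, adjusted p = 0.0308). No gene of this list was called in UON or retina after either injury by edgeR, with an unadjusted p under 0.05 in 8 of 80 tests in UON and 9 of 80 in retina. Among all genes such a p was reached per comparison by 451 of 22438 to 1980 of 21368 in UON. In retina it was reached by 1321 of 23301 to 2037 of 22671. Of 8 other CCN proteins and thrombospondins, Ccn4 was the only one called between the nerve regions, near the 9.63% of all genes called in either direction. It was at 13.0 ± 0.653 CPM in UON against 0.499 ± 0.570 CPM in MON (5.13, adjusted p = 0.0111). Its MON level was near 0, so the size of this fold change is uncertain. None of the 8 was called after injury by edgeR, with an unadjusted p under 0.05 in 19 of 109 tests.

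SRF and its actin-sensing MRTF partners share several targets with YAP and TAZ. Of 14 genes that they control, 10 were called higher in naïve UON than in MON, with a median of 1.66, beside 4.83% of all genes called higher. Cnn1, a smooth muscle actin-binding protein, was at 109 ± 12.5 CPM (SD, n = 2) in UON against 0.736 ± 0.320 CPM in MON, Tagln at 543 ± 129 against 36.2 ± 19.3 CPM, and Acta2 at 98.0 ± 4.85 against 9.56 ± 2.97 CPM. At crush 3 D in MON 4 of 14 were called higher, beside 3.61% of all genes, among them Acta2 (1.67, adjusted p = 0.0371) and Actb (1.88, adjusted p = 0.0481), and at 2 W 0 of 14 by edgeR, 6 of them at an unadjusted p under 0.05. Such a p was reached at 2 W by 3204 of all 19988 genes tested. Of the immediate early genes 6 of 13 tested were called higher in MON at crush 3 D and 5 at 2 W, beside 3.61% and 2.13% of all genes. Egr1, an early growth response factor, was at 13.6 ± 5.49 CPM in naïve MON, 69.8 ± 0.496 CPM at 3 D (2.48, adjusted p = 0.0114) and 81.5 ± 2.85 CPM at 2 W (2.65, adjusted p = 0.0153). The members Ccn1 and Thbs1 respond quickly to serum and injury in many cells, and immediate early, actin and proliferation genes were called in the same MON pools; their part in the change of Ccn1 and Thbs1 was not tested.

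The genes whose pattern was most like each member were sought among 10578 genes with a mean of at least 10 CPM, by Pearson's r of log2 CPM over the 36 libraries after the mean of each tissue was subtracted. The libraries share pools of mice, naïve controls and differences in depth, so these values are descriptions. For Thbs1 the highest were Plin2 (r = 0.884), Actg1 (0.851) and Fbln2 (0.844), for Ccn1 Itga5 (0.772), Fblim1 (0.758) and Mcm6 (0.750), and for Ccn2 Trib2 (0.751), Igfbp3 (0.722) and Fbn1 (0.708). Wwtr1 was most like Vcam1 (0.731), Osmr (0.722) and H2-Q1 (0.703), and Lats2 like Gsdme (0.830), Lin52 (0.821) and Fzd3 (0.817). Amotl2 was most like Kifc2 (0.847), Dnajc27 (0.844) and Usp42 (0.822), whereas the highest values for Ajuba, Yap1 and Tead1 were Tpra1 (0.752), Tshz1 (0.732) and Ppp2r5a (0.665). Between members the values were 0.616 for Ccn1 and Thbs1, 0.606 for Amotl2 and Lats2, 0.470 for Wwtr1 and Ccn1, and 0.0726 for Yap1 and Wwtr1. The lowest were -0.447 for Lats2 and Thbs1, -0.438 for Tead1 and Lats2, -0.411 for Ankrd1 and Amotl2, and -0.375 for Amotl2 and Thbs1.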

How the data were processed

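RNA of 36 pools, prepared with an ultra-low-input kit and read in pairs, was aligned by the authors with HISAT2 2.2.1 to GRCm38, assembled with StringTie 1.3.0 on Gencode annotation, and quantified per gene. The deposited estimated counts are the authors' values from the StringTie count script, without normalization; strand use in that step is not given in the sources used here. The deposited TPM and FPKM are also StringTie values by the authors, per kilobase of transcript and scaled within each library; 25 TPM values of the whole table lay below 0 and were set to 0.

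Counts were tested with edgeR 4.0.16 in R 4.3.3 (TMM, the filterByExpr filter at 10 counts per library and 15 in total, quasi-likelihood F test, group and sex as terms, Benjamini-Hochberg adjustment over all genes tested), and a call needed an adjusted p below 0.05 together with a log2 fold change past 1 in size. The SE is the log2 fold change divided by the square root of F. CPM use TMM over all 36 libraries. Alternatives were DESeq2 1.42.0, RLE size factors, no filter, no sex term, more libraries per fit, a block for the pool of mice, each pool left out and, added after seeing the data, limma 3.58.1 on log2(TPM + 1). The members and lists were chosen with earlier results of these data known. Named list genes were the 3 called in most injury comparisons and the 3 called with the largest naïve UON to MON difference. All 3 tissues came from the same mice, and in the naïve comparison the sex term also stands for the pool of mice. The main fits over all states (tissue, state and sex as terms) and of the differences in response had no term for the pool. For these the block for the pool of mice was an alternative only. The female-minus-male differences of 30097 genes correlated between UON and MON at -0.0364 to 0.0948 over the states. The scripts were tested on simulated data.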

Additional observations from a re-analysis of the deposited data

Results flagged for a closer look

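The response of Thbs1 to crush at 3 D differed between MON and retina. The MON change minus the retina change was 8.70 on the log2 scale (adjusted p = 0.00766, edgeR's quasi-likelihood test of the interaction, a comparison added after the data had been seen). Thbs1 was at 279 and 1050 CPM in the MON pools and at 1.90 and 1.86 CPM in the retina pools, against 1.5 and 2.65 CPM and 2.50 and 2.15 CPM in the naïve pools. The difference was called in 5 of 5 alternatives and in each fit that left out a pool, which keeps 1 library in a group. The MON change by itself lost its call without the female naïve MON pool, as given above.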

How the results depend on the processing

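No called result reversed its direction under any alternative, whereas uncalled values of members changed sign in 30 cases with limma, 200 with pools left out and 3 to 5 under each other alternative. The number of members called between naïve tissues was 19 over the 3 comparisons and 16 to 20 otherwise, that over all states was 21 and 14 to 22 otherwise, and the 7 members ordered UON, MON, retina by mean TPM were also 7 by FPKM. After crush 5 calls became 10 with DESeq2, and with pools left out the number ran from 0 (without the female naïve MON pool) to 7, with 2 without the male naïve MON pool. After glaucoma 0 calls became 7 with DESeq2 and 2 without the filter on low counts, and with pools left out the number ran from 0 to 2, the 2 being Thbs1 and Ccn1 without the male MON pool at 3 D. For the difference in response between UON and MON, 0 calls became 5 with DESeq2, 5 without the filter and 1 with the replicate block for the pool of mice, and with pools left out the number ran from 0 to 3. It was 3 without the female and 1 without the male UON pool at crush 2 W, 1 without the male UON pool at crush 3 D, 2 without the male and 1 without the female MON pool at crush 2 W, and 1 without the female MON pool at crush 3 D. For the difference in response from retina, 1 call became 4 with DESeq2, 2 with RLE size factors, 3 without the filter, 2 with the block and 2 with limma, and with MON or retina pools of the crush fit left out it ran from 1 to 3. It was 3 without the male retina pool at crush 3 D and 2 without the female retina pool at crush 3 D, the male MON pool at crush 2 W or either MON pool at crush 3 D. The block changed the call of Thbs1 in the 2 differences given above and no other. With limma, Yap1 between UON and MON over all states kept an adjusted p of 0.000987 but had a log2 difference of 0.973, under the limit of 1, and Thbs1 in MON at crush 2 W had an adjusted p of 0.0612; with more libraries in the fit the latter was 0.167. Why these counts moved was not tested.

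DESeq2 called more genes of all kinds: 5308 against 1478 after crush, 1634 against 3 after glaucoma, 1273 against 22 between the injuries, 1129 against 3 for the UON and MON differences and 3939 against 403 for those from retina. Without the filter these were 3908, 212, 246, 996 and 1655. The median log2 fold change of all genes between UON and retina over all states was -0.215 with TMM and -0.353 with RLE size factors, and no regional call of a member was lost with RLE. With 2 pools per group, a change that was not called may still be present.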
